A study of Homo sapiens with 2 samples.

Results

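The clustered histone genes are the protein-coding genes that encode the linker histone H1 and the core histones H2A, H2B, H3 and H4, most of them packed in gene clusters on chromosomes 6 and 1. They were taken from the RefSeq gene table of human assembly GRCh38 by their symbols, which begin with H1-, H2AC, H2BC, H3C or H4C, and 73 genes of 20037 protein-coding genes are described. The rule takes in a few histone genes that lie alone or on other chromosomes, and they were kept, H4C16, H1-7 and H2BC12L as solitary genes and H1-10 and H1-8 as neighbours on chromosome 3. The genes were set against the binding sites of the transcription factor ETV4, mapped by chromatin immunoprecipitation and sequencing (ChIP-seq) in A549 cells, an established human non-small cell lung cancer line. The cells carried a short hairpin RNA against ETV4 and were then given Flag-tagged ETV4, and both libraries came from these cells, so that no cell with the endogenous factor alone was mapped. There was 1 anti-Flag immunoprecipitate and 1 input library, and the list of 54389 peaks was called on that 1 immunoprecipitate. Whether the cells were 1 clone is not given in the sources used here, and no value below has a replicate, a standard deviation or a test.

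ETV4 belongs to the PEA3 group of the ETS transcription factors, which bind DNA around a GGAA core. The clustered histone genes are short, mostly without introns and transcribed mainly in S phase, when newly made DNA has to be packed. Many H2A and H2B genes stand head to head and share the DNA between their starts, and the messenger RNAs end in a stem-loop in place of a poly(A) tail.

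The DNA just before the start of 5 of these genes is shown to set genes with and without a peak beside each other. H4C5 had the strongest peak of the core histone genes, H4C8 of the same type had none, H2AC7 and H2AC17 each shared a peak with an H2B partner, and H4C14 lay in the long stretch of the chromosome 1 cluster without a peak at any histone gene. Each line gives the 250 bases before the start, read 5′ to 3′ towards the gene, from RefSeq on GRCh38.p14, with capitals at every GGAA on either strand (GGAA or TTCC).
H4C5, chr6:26204360-26204609, plus strand: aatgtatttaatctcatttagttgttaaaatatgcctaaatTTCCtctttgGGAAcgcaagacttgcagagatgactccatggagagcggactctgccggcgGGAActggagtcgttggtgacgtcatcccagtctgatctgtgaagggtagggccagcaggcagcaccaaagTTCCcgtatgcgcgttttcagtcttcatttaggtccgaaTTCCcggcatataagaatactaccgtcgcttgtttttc
H4C8, chr6:26285535-26285784, minus strand: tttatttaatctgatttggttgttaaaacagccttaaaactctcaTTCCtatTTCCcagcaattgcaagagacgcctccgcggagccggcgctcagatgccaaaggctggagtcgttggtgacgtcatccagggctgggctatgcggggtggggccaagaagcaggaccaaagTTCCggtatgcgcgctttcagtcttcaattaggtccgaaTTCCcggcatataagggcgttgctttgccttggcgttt
H2AC7, chr6:26199294-26199543, minus strand: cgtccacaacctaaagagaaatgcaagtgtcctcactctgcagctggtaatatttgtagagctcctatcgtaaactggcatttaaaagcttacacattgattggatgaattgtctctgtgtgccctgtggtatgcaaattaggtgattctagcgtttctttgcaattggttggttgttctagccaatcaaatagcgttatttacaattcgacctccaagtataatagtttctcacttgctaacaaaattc
H2AC17, chr6:27893186-27893435, minus strand: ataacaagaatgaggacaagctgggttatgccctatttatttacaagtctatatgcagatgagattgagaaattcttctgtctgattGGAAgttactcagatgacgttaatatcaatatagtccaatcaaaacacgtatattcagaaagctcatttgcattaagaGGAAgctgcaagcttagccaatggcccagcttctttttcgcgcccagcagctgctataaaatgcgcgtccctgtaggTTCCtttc
H4C14, chr1:149832407-149832656, plus strand: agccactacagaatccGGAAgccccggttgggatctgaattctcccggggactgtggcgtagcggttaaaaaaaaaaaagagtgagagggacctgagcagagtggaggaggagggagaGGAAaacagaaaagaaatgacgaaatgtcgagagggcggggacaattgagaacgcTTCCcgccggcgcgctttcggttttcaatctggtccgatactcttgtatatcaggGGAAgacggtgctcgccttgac

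The H4C5 window held 5 GGAA cores, the H4C8 and H4C14 windows 4 each, the H2AC17 window 3 and the H2AC7 window 0. None of these 5 windows held a summit, so the counts cannot show whether cores go with peaks. The H4C5 summit lay 513 bp upstream of the start, and those of H2AC7 and H2AC17 lay 233 and 170 bp into the gene. A match is a description of the letters and not a binding site, and a window without a match says only that the letters are not in it.

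A gene was counted as having a peak where a peak interval reached within 1 kb of either of its ends. By that measure 39 of the 73 histone genes had a peak, 53.4% with a 95% Wilson interval of 42.1 to 64.4, beside 62.1% of all protein-coding genes. The interval covers counting only and treats the genes as independent, although neighbours shared peaks. Most histone genes are short, and the median length searched was 2495 bp for them and 4002 bp for all protein-coding genes. The 39 genes drew on 38 distinct peaks, of which 23 reached 1 histone gene and 15 reached 2 or 3.

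The height of a peak was read as the fold enrichment at its summit, the immunoprecipitate over the control level, each with 1 added. The peaks at histone genes were low. Their median fold was 6.57 (n = 38 peaks), against 15.35 for the 12251 peaks within 1 kb of an end of any protein-coding gene, and 36 of the 38 lay under that median. With a fold over 5 required, 32 histone genes (43.8%) kept a peak, beside 57.5% of all protein-coding genes. With a fold over 10 required, 11 did (15.1%), beside 45.2%. The strongest peaks of H2BC5 and H4C5 were the 2 above 17.58, the median strongest fold of the protein-coding genes with a peak.

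The fold joins the number of immunoprecipitated fragments that cover the summit, called the pileup, and the control level there, and both were worked out from the deposited fold and p-value. The control level was higher at the histone gene peaks. Its median was 3.38 fragments at the histone gene peaks, 2.03 at the gene-end peaks and 1.67 at all peaks, and it was above 1.67 in 36 of the 38. The median pileup was 28.5 fragments at the histone gene peaks, 46 at the gene-end peaks and 26 over all peaks, and 8 of the 38 were above 46. On chromosome 6 alone, 32 peaks at histone genes had a median fold of 6.29, a pileup of 29.5 and a control level of 3.41, whereas 645 peaks at the ends of other genes had 16.75, 62 and 2.70. The part of the control level in the low folds was not tested.

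**Figure D1:**
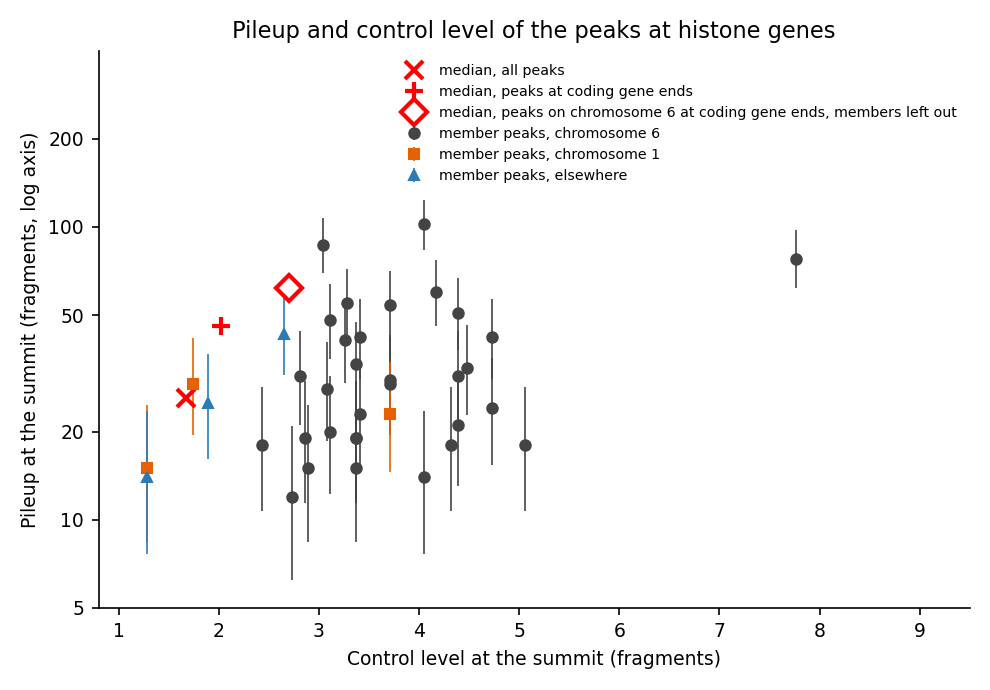
Pileup at the summit (fragments, log axis) against the control level (fragments) for the 38 peaks at histone genes, which the legend calls members, with exact Poisson 95% intervals of the pileup, and the medians of 3 sets of peaks in red. The histone gene peaks sit to the right, 36 of them above the all-peak median control level of 1.67, and 8 have a pileup above the gene-end median of 46.

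The histone genes share much of their sequence, so reads could fit more than 1 copy, and how such reads were handled is not given in the sources used here. A missing peak therefore means that no peak was called, not that ETV4 was absent.

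By type, the genes for H2A, a core histone that pairs with H2B, most often had a peak, 12 of 17, and the genes for H3, which pairs with H4, least often, 5 of 13. The counts were 10 of 19 for H2B, 8 of 15 for H4 and 4 of 9 for H1, the linker histone that binds the DNA between nucleosomes. Their Wilson intervals, 46.9 to 86.7% for H2A and 17.7 to 64.5% for H3, treat genes as independent and cover counting only. Yet 10 of the 12 H2A genes and 3 of the 5 H3 genes shared their strongest peak with another histone gene. All counts also rest on 1 immunoprecipitate, so the intervals cannot rank the types, and no order is drawn. The median fold of the strongest peak ran only from 6.79 for H2A to 9.75 for H2B, with 7.31 for H4, 7.77 for H1 and 9.01 for H3. The ranges within a type were wider than the gaps between types.

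**Figure D2:**
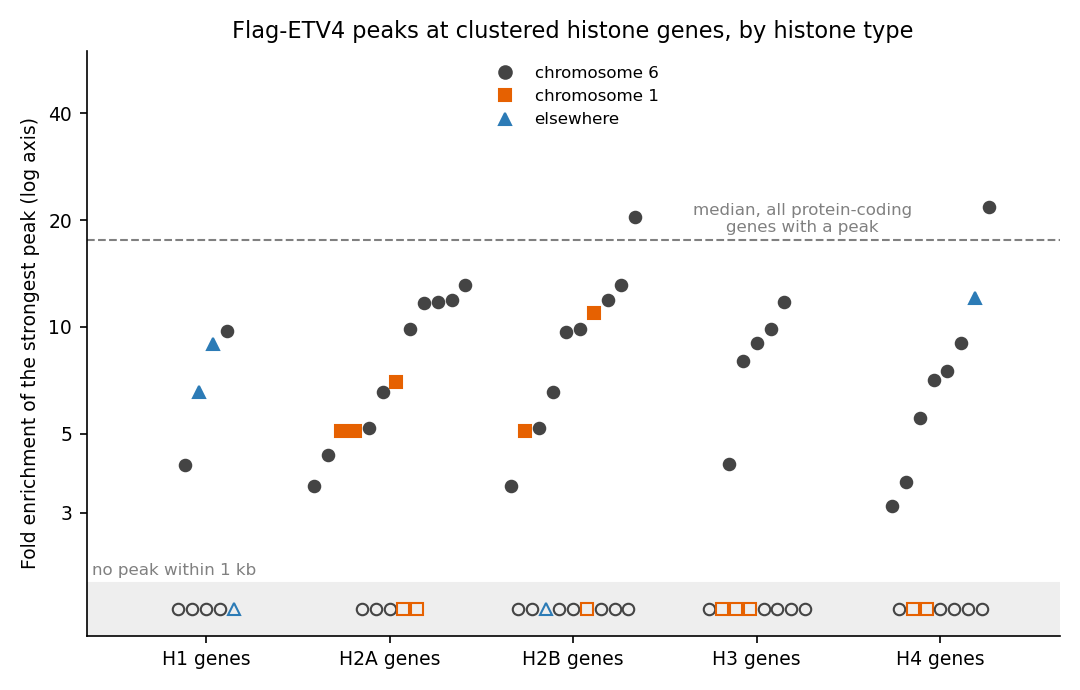
Fold enrichment of the strongest peak within 1 kb of each histone gene (log axis), by histone type, with open symbols in the grey band for genes without a peak. The 5 types overlap in range, and H2BC5 and H4C5 are the 2 genes above the dashed line at 17.58, the median of all protein-coding genes with a peak.

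The linker histone genes had peaks of low to middling fold. H1-2, one of the cell cycle-regulated genes of chromosome 6, was highest at 9.74 with 42 fragments at its summit (exact Poisson 95% interval 30.3 to 56.8, for counting error only). H1-10 on chromosome 3, a replication-independent H1, had 1 peak of fold 8.98 with 25 fragments (16.2 to 36.9) and a summit 463 bp upstream of its start. H1-4 reached 4.08 with 21 (13.0 to 32.1), and its summit, like that of H1-2, lay inside the gene. H1-1, H1-3 and H1-5 had no peak, nor did the testis genes H1-6 and H1-7. The peak of H1-8, the oocyte linker histone, had a fold of 6.57 and lay 7580 bp into the gene, near its far end.

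Among the H4 genes, H4C5 on chromosome 6 had the strongest peak, of fold 21.8. It was 2502 bp wide (chr6:26203727-26206228) and covered the whole gene, with 87 fragments at a summit 513 bp upstream of the start (69.7 to 107). The solitary gene H4C16 on chromosome 12 followed with a fold of 12.04 and 43 fragments (31.1 to 57.9), its summit 52 bp past its 3′ end. At the low end, H4C4 had a fold of 3.66 with 15 fragments (8.40 to 24.7), and H4C11 a fold of 3.13 with 18 (10.7 to 28.5). The counting interval of H4C5 was clear of those of both. H4C6, H4C7, H4C8 and H4C9 had no peak.

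Among the H3 genes, H3C2 was highest at a fold of 11.8 with 60 fragments (45.8 to 77.2), its summit 157 bp into the gene. The same peak was counted for H2AC4. The H3C4 peak, of fold 9.86, lay at a 5′ end that RefSeq gives to H3C4 and H2AC7 alike, so the genes could not be told apart by it. It also reached H2BC7. H3C12 had a fold of 7.999 and H3C10 one of 4.11, each with the summit inside the gene. The peak of fold 9.01 that H3C1 shared with H4C1 had 78 fragments (61.7 to 97.4), more than the H3C2 peak, over the highest control level of the histone gene peaks, 7.76. H3C3, H3C6, H3C7 and H3C8 had no peak.

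Among the H2B genes, H2BC5 had a peak of fold 20.4 with 102 fragments (83.2 to 124). Its summit lay 691 bp beyond the far end of a RefSeq transcript of 13229 bp and 13919 bp from the start, so this peak is not at the histone promoter. H2BC11 had a fold of 13.1 with 55 fragments (41.4 to 71.6) from a peak 434 bp past its 3′ end. H2BC8 was lowest at 3.57, shared with H2AC8. H2BC1, H2BC3, H2BC6 and H2BC9 had no peak. Among the H2A genes, H2AC11 shared the H2BC11 peak, and H2AC17 shared a peak of fold 11.9 with H2BC17, with 48 fragments (35.4 to 63.6). H2AC16 had the second lowest H2A value, 4.37. H2AC1, H2AC13 and H2AC14 had no peak.

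The position of the summits was then set beside that at other genes, as shares without a test. None of the 67 histone genes with a listed promoter had a summit in the window from 250 bases before to 50 after the start, beside 19.6% of 15843 protein-coding promoters. A peak interval overlapped that window in 23 of them (34.3%), beside 56.0%. With peaks taken only within 1 kb of the 5′ end, 33 of the 67 had one, beside 61.3%. In these 33 genes the nearest summit lay within 100 bp of the start in 1 gene, H1-4, that is 3.03%, whereas it did so in 27.4% of 9684 other protein-coding genes. Among genes at most 1 kb long the share was 3.7% of 27 histone genes and 17.1% of 41 others. The nearest summit lay 0 to 300 bp into the gene in 16 of the 33 (48.5%), against 34.3%. Among genes at most 1 kb long that share was 55.6% of the histone genes and 26.8% of the others. The 33 genes are not 33 separate summits, since neighbours shared some. H3C4 and H2AC7, for example, are both counted by 1 summit, 233 bp into each.

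**Figure D3:**
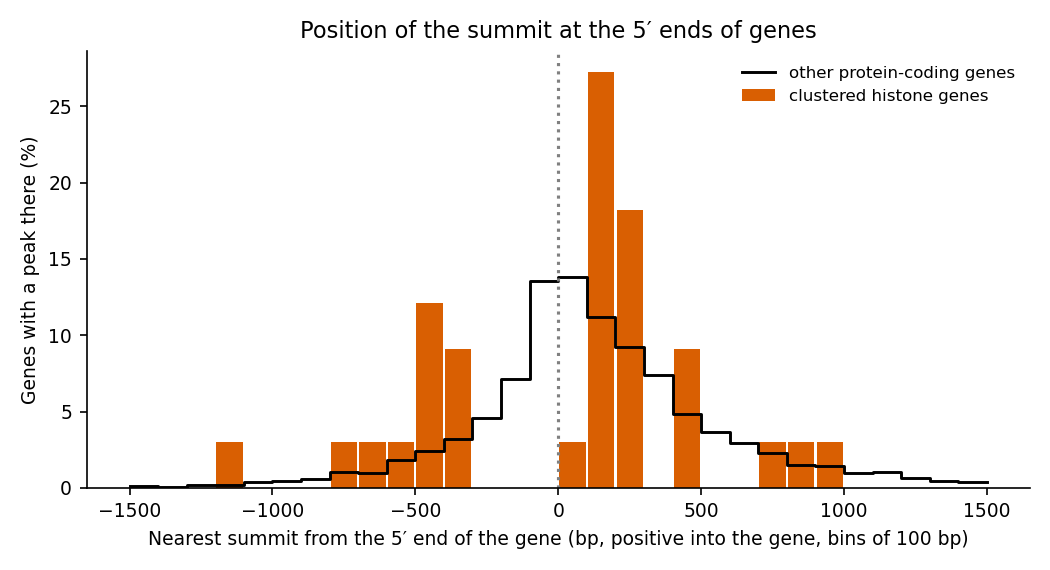
Distance of the nearest summit from the 5′ end (bp, positive values into the gene) as the percentage of the 33 histone genes (bars) and of the 9684 other protein-coding genes (line) in bins of 100 bp. The other genes peak around the start, where 27.4% lie within 100 bp, while 16 of the 33 histone genes lie 0 to 300 bp into the gene and 1 lies within 100 bp of the start. Neighbouring histone genes can be counted by the same summit.

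A summit inside the gene body was common. Of the 62 histone genes at most 1 kb long, 19 held a summit (30.6%), beside 6.06% of the 528 protein-coding genes of that length, which include the histone genes. The 19 were spread unevenly over the types. They were 9 of 17 H2A genes, 4 of 11 H3 genes (H3C1, H3C2, H3C10 and H3C12), 4 of 14 H4 genes (H4C1 to H4C4), 2 of 6 H1 genes and 0 of 14 H2B genes. The difference between H2A and H2B was not tested, since genes of these types share peaks.

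The head-to-head pairs put both types at the same peaks. Among the genes with a direction in the RefSeq promoter table there were 11 pairs of an H2A and an H2B gene that point away from each other, with starts 194 to 248 bp apart (median 236), so both genes are within reach of any peak between them. H2BC12 and H2AC12, which also shared a peak, of fold 6.58, were not counted, since H2AC12 has no listed direction. In 8 of the 11 pairs both genes were reached by 1 common peak. No summit fell between the starts. In 7 pairs a summit lay inside the H2A gene, from 113 bp past the H2A start in H2AC8 to 443 bp in H2AC6. The others were H2AC11 at 145 bp, H2AC25 at 147 bp, H2AC17 at 170 bp, H2AC7 at 233 bp and H2AC15 at 267 bp. The H2AC15 peak, shared with H2BC15, had a fold of 5.18. In 1 pair a summit lay in the H2B gene, at H2BC4, whose RefSeq transcript runs 10757 bp, and its fold was 4.57. In 4 pairs a summit lay outside both genes. Among these were the highest fold at any pair, 13.1 past the end of H2BC11, and the only summit at H2AC20 and H2BC21, of fold 5.09. The summit inside H2AC11 had a fold of 4.57. The pairs H2AC1 and H2BC1, H2AC13 and H2BC13, and H2AC14 and H2BC14 had no peak. Where the summits lay inside H2A, the pileup ran from 15 fragments at H2AC25 to 51 at H2AC6, so that the position of the weaker summits rests on few fragments.

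**Figure D4:**
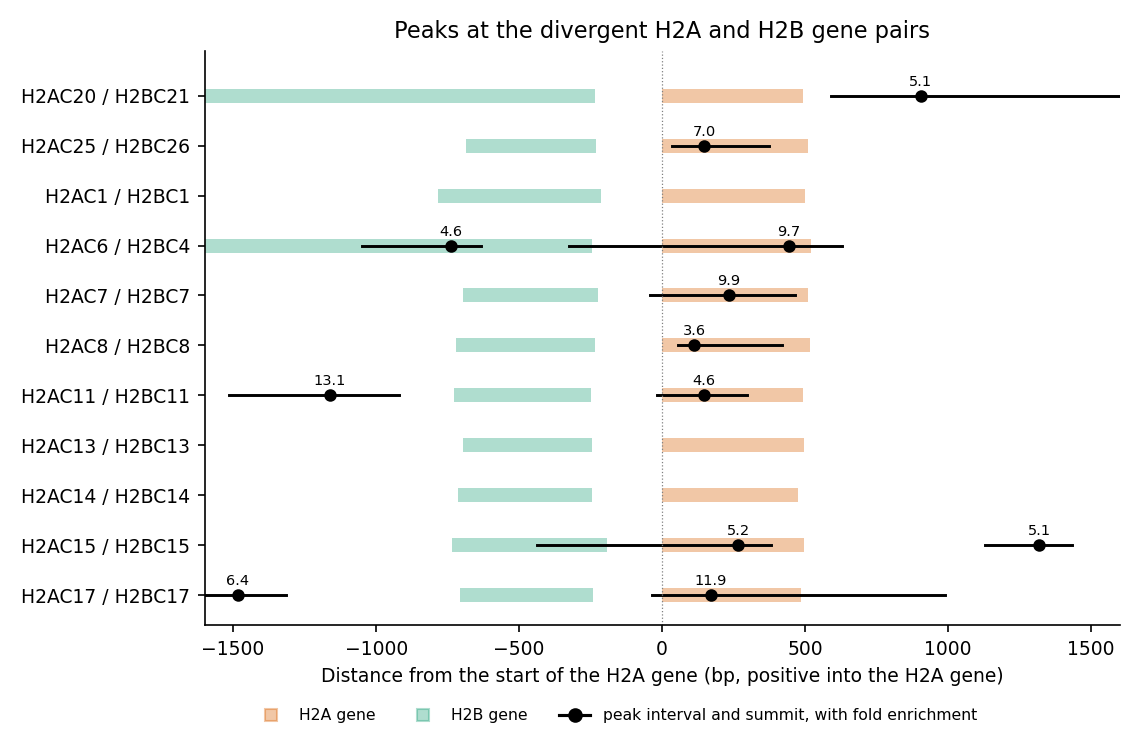
The 11 head-to-head pairs, each on a row, with the distance from the H2A start (bp, positive values into the H2A gene), the gene bodies, the peak intervals and the summits with their fold. Longer H2B transcripts and peaks run past the frame. In 7 pairs a summit lies in the H2A gene and in 4 pairs a summit lies outside both genes. No summit lies in the gap of 194 to 248 bp between the starts.

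The chromosome 6 genes and the chromosome 1 genes were then compared. On chromosome 6, 31 of 55 genes had a peak (56.4%, Wilson interval 43.3 to 68.6), through 32 distinct peaks. On chromosome 1, 5 of 13 did (38.5%, 17.7 to 64.5), through 3 peaks. The intervals overlapped. Among the genes with a peak, the median strongest fold was 9.01 on chromosome 6 (3.13 to 21.8) and 5.09 on chromosome 1 (5.09 to 10.9), where 3 of the 5 genes shared the peak of 5.09. With each distinct peak counted once, the medians were 7.755 and 7.007. With genes without a peak entered at 0, the medians were 3.66 and 0.

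The genes fell into runs where neighbours were at most 500 kb apart. The first run of chromosome 6, from H2AC1 to H4C8, had 18 of 34 genes with a peak. The second, from H2BC11 to H2AC12, had 4 of 5, and the third, from H2BC13 to H2BC17, 9 of 16, beside 62.1% of all protein-coding genes. These runs held 5.70, 17.4 and 12.4 peaks per 100 kb, where chromosome 6 as a whole held 1.95. The main run of chromosome 1, from H2BC18 to H2AC21, held 1.86 per 100 kb, where chromosome 1 held 2.17. The dense peaks of the chromosome 6 runs were mostly at the histone genes themselves, 20 of 32, 3 of 3 and 9 of 11.

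In the main run of chromosome 1, 1 peak of fold 5.09 with 23 fragments (14.6 to 34.5) reached H2BC21, H2AC20 and H2AC21, with its summit inside H2AC21. The other 8 genes, H2BC18, H3C13, H4C14, H3C14, H2AC18, H4C15, H2AC19 and H3C15, stood one after the other over 78.6 kb without a peak within 1 kb of an end. The stretch held 1 peak, of fold 6.13 with 13 fragments, far from the ends of these genes but inside the RefSeq span of H2BC18, which is 29682 bp long. None of the 3 H3 genes and neither H4 gene of chromosome 1 had a peak. Far from this run, H2AC25 and H2BC26 shared a peak of fold 7.01, with 15 fragments (8.40 to 24.7). H2BC26 also had a peak of fold 10.9 with 29 fragments (19.4 to 41.7), the highest of the chromosome 1 genes, 992 bp past its 3′ end.

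A like stretch was found on chromosome 6. There 9 genes in a row, H3C6, H1-3, H4C6, H4C7, H3C7, H2BC9, H3C8, H2BC10 and H4C8, had no peak over 61.4 kb, and the 1 peak inside the stretch had a fold of 3.09. It began just past H2AC8, itself at 3.57, with H2BC8 and H2AC8 alone between it and H4C5, which had a fold of 21.8. Of the solitary genes, H2BC12L on chromosome 21 and H1-7 on chromosome 12 had no peak.

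**Figure D5:**
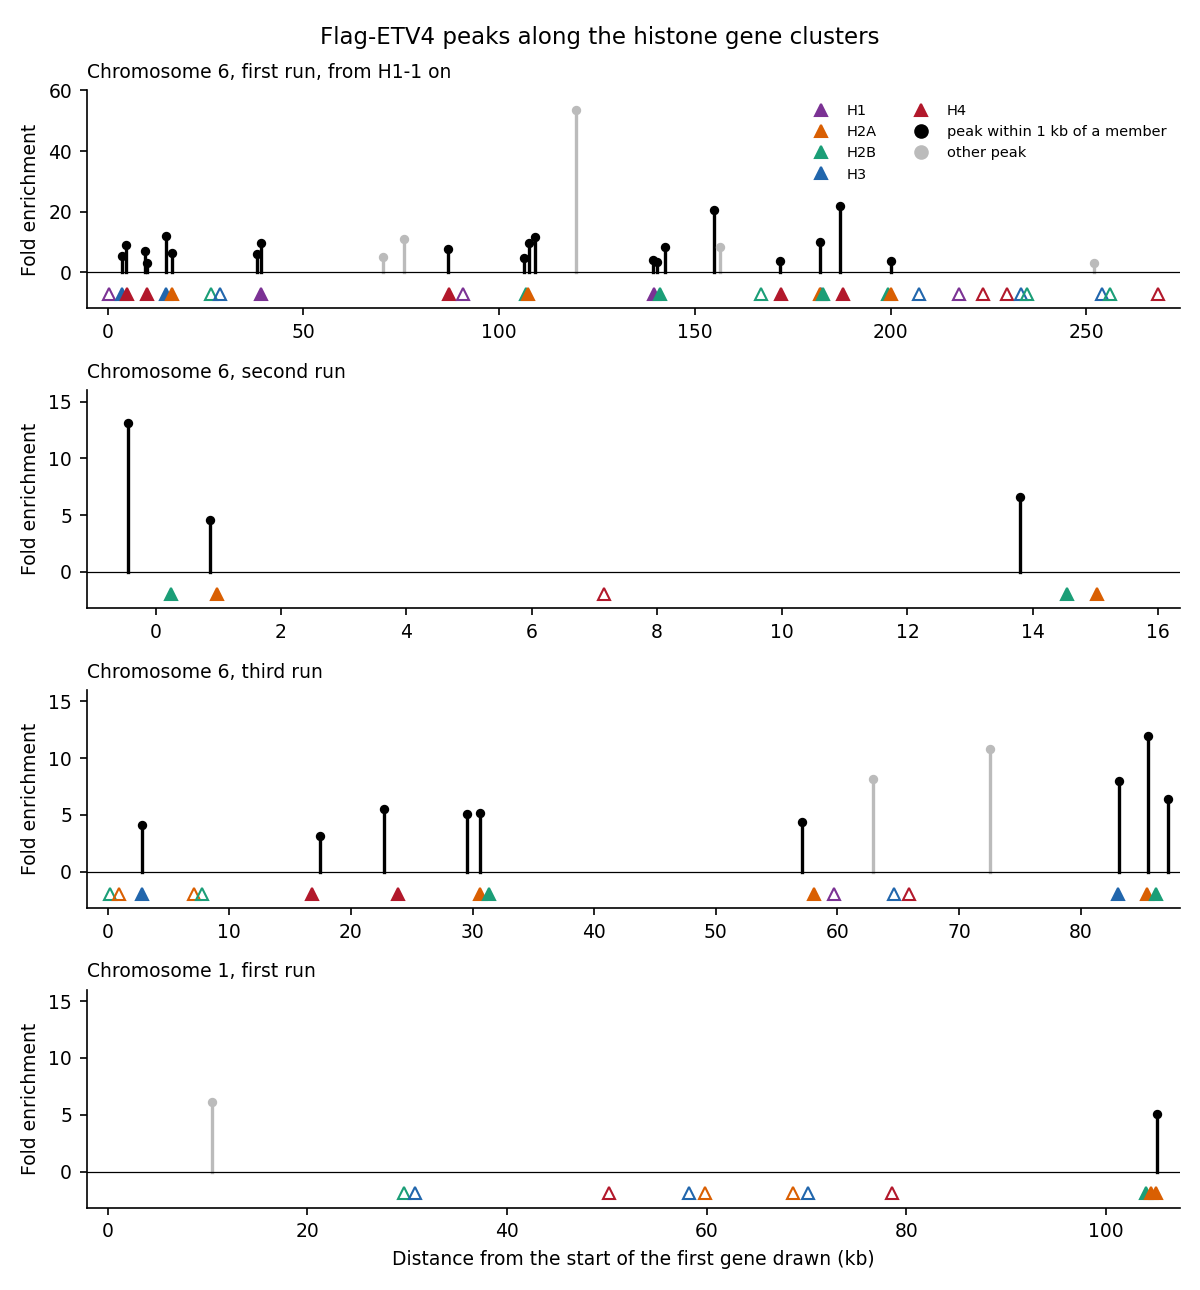
Fold enrichment of the peaks along the drawn part of 4 runs of histone genes, against the distance from the first gene drawn (kb). Genes are triangles, filled where they have a peak, at the middle of the gene or, where it is over 1 kb long, at its start. The first run is drawn from H1-1 on. H2AC1 and H2BC1, far to the left, are left out, and so are the 7 peaks from there to H1-1, the highest of fold 75.5. The 9 genes at the right end of the first run and the 8 at the left of the chromosome 1 run have open triangles.

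Promoters near-identical to each other were found mostly in the chromosome 1 stretch. The 300-base promoter windows were compared without gaps, each pair at the small shift that gave the highest identity. Windows of every listed start were used, and 5 genes had more than 1. Over 2538 comparisons the median of this highest identity was 32.1%, and 4 pairs were at least 90% identical. H2AC18 and H2AC19, H3C14 and H3C15, and H4C14 and H4C15 were each 100% identical, and all 6 are among the 8 genes in a row without a peak at their ends. The fourth pair, H4C11 and H4C12 on chromosome 6, was 98.3% identical, differing at 5 of 300 bases, and each of its genes had a peak of its own, of fold 3.13 and 5.53 and with summits past the 3′ end. H4C5, with the highest fold of the H4 genes, and H4C8, without a peak, differed at 116 of 300 bases. The part of reads that fit 2 copies equally well in the missing peaks was not tested.

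The promoter windows, 250 bases before to 50 after the start, held the elements known from histone genes. They were searched on both strands for exact letters, and the windows of head-to-head pairs overlap and so count the same bases again. TATAA, the TATA box, stood in 91.0% of 67 histone windows and 16.8% of all protein-coding windows. CCAAT, the CCAAT box, stood in 83.6% against 36.4%, in every H2A, H2B and H3 window and in 23.1% of the H4 windows. ATTTGCAT, the octamer bound by POU2F1, was found in 77.8% of the H2B and 68.8% of the H2A windows against 1.72% of all, and AAACACA, the H1 box, in 77.8% of the H1 windows against 4.27%.

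The ETS letters were no more common than elsewhere. GGAA stood in 94.0% of the histone windows and 95.2% of all windows, on average 2.91 and 3.48 times. It averaged 2.49 in histone windows of genes with a peak and 3.38 in those without. The longer ETS consensus CCGGAAGT was in 0 of 67 histone windows, beside 6.17% of all. CCGGAA, which contains GGAA and was added after the other letters had been counted, was in 1 of 35 windows of genes with a peak, that of H1-4, and in 8 of 32 without, beside 22.7% of all windows. The 8 include the identical windows of H2AC18 and H2AC19 and of H4C14 and H4C15. The windows do not reach the summits, since 0 of 67 hold one, so these letters were not read where the peaks were highest. The median GC content was 43.3% in the histone windows and 62.7% in all.

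The genes that serve the histone genes had peaks of a higher median fold than the 7.999 of the 39 histone genes with a peak. The protein-coding genes with a peak, taken as a whole, also had a higher median, 17.58. All 13 genes of a list for histone gene expression were called by the 1 kb rule, beside 62.1% of all protein-coding genes, with a median strongest fold of 21.7. NPAT, the cyclin E-CDK2 substrate that activates histone transcription, had a fold of 24.1. LSM10 and LSM11, subunits of the U7 particle that cuts histone messengers, had 89.6 and 46.6, and SLBP, which binds their stem-loop, had 19.7. The lowest was CASP8AP2, a component of the histone locus body, at 4.80. HINFP, an activator of H4 genes, was at 7.77.

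Of 11 genes listed for variant histones, 9 had a peak, with a median of 36.4, beside 62.1% of all protein-coding genes. H2AZ1 had 46.5, H2AX 36.4, H3-3A 33.9, H3-3B 28.6 and CENPA, the H3 of centromeres, 37.9, while H3-4 and H3-5 had none. The summit of the H2AZ1 peak lay 3612 bp downstream of its start, so that value is not from its promoter. All 16 genes of the histone chaperones listed had a peak, beside the same 62.1%. Their median of 18.45 was near the 17.58 of all protein-coding genes with a peak. The values ran from ATRX at 4.83 and MCM2 at 4.84 to HJURP, the chaperone of CENPA, at 55.8. CHAF1A, a subunit of CAF-1, which loads H3 and H4 on new DNA, had 42.5. These lists were chosen with earlier results known and were not tested against the histone genes.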

How the data were processed

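The authors deposited a narrowPeak list from the anti-Flag immunoprecipitate, called over the input, with the fold enrichment at each summit as a ratio and −log10 p and −log10 q. The input library was not analysed here by itself. The submitters' processing notes name Bowtie2 2.4.1, SAMtools, MACS2 2.2.7.1, deepTools 3.5.0 and hg38. Parameters, read depth and the handling of duplicate and multiply mapped reads are not given in the sources used here. The Flag antibody is from Sigma in the labels and from CST in the study's methods.

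Genes were the outer ends in RefSeq GRCh38.p14. Direction came from the promoter table, which matched 67 of the 73 genes and not H4C1, H4C3, H2AC12, H3C11, H3C12 and H2BC12L. One gene that the rule takes in is not reported here and is left out of the counts of histone genes. The pileup was solved from fold = (pileup + 1)/(control + 1) and the Poisson p; the largest distance from a whole number was 0.00914. The solution was tested on 20000 simulated peaks. Intervals are 95% and cover counting error only. Values were computed with pandas 2.3.3, numpy 2.4.6 and scipy 1.17.1 under Python 3.11.15, and drawn with matplotlib 3.10.9.

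Named with values were, in each type, the 2 highest and 2 lowest strongest folds and up to 4 genes without a peak, every solitary and chromosome 1 gene, and genes that share 1 of the 5 strongest peaks of a cluster. Other genes named, among them those in pairs and stretches, were picked once the values were known. The members and lists were chosen with earlier results of these data known. Alternatives were fold and q thresholds, windows of 500 bp and 2 kb, summits for intervals, nearest-gene assignment, the 5′ end alone and, added after seeing the data, genes at most 1 kb long. A planned comparison of the encoded proteins was not run.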

Additional observations from a re-analysis of the deposited data

How the results depend on the processing

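With 1 immunoprecipitate no replicate could be left out, and counting intervals cover no difference between experiments. No paired analysis was possible because no result came from a test between samples. Of 82 values, 67 stayed within 1.5 times the reported count, or close to the reported median, and 15 moved. The window of 500 bp gave 34 histone genes with a peak and that of 2 kb gave 43, against 39. For these windows, nearest-gene assignment and the length limit, no share over all protein-coding genes is given here.

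Requiring a fold over 10 left 11 histone genes with a peak, 9 on chromosome 6, 1 on chromosome 1, and 0 H1, 4 H2A, 4 H2B, 1 H3 and 2 H4 genes, against 39, 31, 5, 4, 12, 10, 5 and 8. Giving each peak only to the gene with the nearest end left 3 genes on chromosome 1 and 6 H2B genes. The 5′ end alone left 5 H4 genes, where genes without a listed direction drop out. Keeping genes at most 1 kb long, an alternative chosen after seeing the data, left 2 H1 and 6 H2B genes. With genes without a peak at 0, the median strongest fold fell from 9.01 to 3.66 on chromosome 6 and from 5.09 to 0 on chromosome 1.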

Other observations

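The strongest peaks inside the first chromosome 6 run were not at its histone genes. A peak of fold 75.5 with 304 fragments at its summit lay 2990 bp from the histone pseudogene H2AC3P. A peak of fold 53.6 with 199 fragments (chr6:26136265-26137135) lay 11932 bp from H2AC6, the gene with the nearest end. The 12 peaks of this run that were over 1 kb from any of the 73 genes had a median fold of 12.4, and the 20 at those genes 7.31. None of the 8 histone pseudogenes in the run was reached by a peak.

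Of the 38 peaks at histone genes, 35 had the end of a histone gene as the nearest gene end of any kind. The other 3 were nearer to an end of the pseudogene H2BC16P (counted for H2AC16), of LOC105369669 (counted for H4C16) and of H2BC6-AS1, an antisense transcript (counted for H2BC5). The summit of the last of these, of fold 8.41, lay inside H2BC5 itself.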
